A study of Homo sapiens with 6 samples.

Results

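Transcripts of p53 target genes were examined in HepG2 cells, a human hepatoma line, with and without a water extract of the leaves of Barringtonia racemosa. The list held 10 genes (CDKN1A, MDM2, BBC3, BAX, TP53I3, FAS, SESN1, ZMAT3, BTG2 and RRM2B). A gene was measured where the annotation of the array gave a transcript cluster exactly 1 symbol and that symbol was on the list. In this way 9 genes were found, with 1 cluster each, among 19291 tested clusters that stand for 18372 genes. BTG2 was not analysed here. The study compared 3 arrays of untreated cells with 3 arrays of cells given 50 µg/ml of the extract for 24 h, here called leaf-treated. Both groups were grown in the same serum-containing medium. Values are log2 expression, so that a difference of 1 is a doubling. The arrays come from 1 cell line, and the labels call the replicates biological without saying whether they were separate cultures, so every error and p reflects the variation among these arrays, which may be technical.

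The p53 protein is a transcription factor that accumulates when DNA is damaged or when ribosome production, nutrients or redox balance are disturbed. MDM2, itself a p53 target, marks p53 for degradation and so keeps its level low in unstressed cells. CDKN1A (p21) halts the cell cycle, BBC3 (PUMA), BAX and FAS lead towards cell death, and SESN1, TP53I3, ZMAT3 and RRM2B act in redox and nutrient control, quinone reduction, RNA binding and nucleotide supply. HepG2 cells carry unmutated p53 and are often used to measure this response.

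For a view of the letters that the p53 protein recognises, promoter windows of RefSeq (GRCh38.p14), each from 250 bases before to 50 bases after a transcript start, were searched for the p53 decamer. This motif reads 3 purines, C, 2 letters that are A or T, G and 3 pyrimidines, and it is its own reverse complement, so that both strands are covered. Of the 35116 windows of all genes, 6.63% held an exact decamer and 1.12% held an adjacent pair of decamers with C and G in place and at most 3 other letters off. Several definitions of a match were scanned and this one was kept after matches had been seen, so the shares are a description. The 17 windows of 9 listed genes, BTG2 included and RRM2B left out, held 2 with an exact decamer (FAS and SESN1) and 4 with such a pair (FAS, SESN1 and 2 overlapping windows of MDM2). They are printed with the pair in capitals because these genes carry the recognised letters close to a start site. The MDM2 stretch (chr12:68808873-68808992, plus strand) has 2 letters off in its pair, the FAS stretch (chr10:88991259-88991378, plus strand) 2 and the SESN1 stretch (chr6:109008989-109009087, minus strand) 3. In MDM2 this is the start inside the gene that p53 is known to use.
MDM2: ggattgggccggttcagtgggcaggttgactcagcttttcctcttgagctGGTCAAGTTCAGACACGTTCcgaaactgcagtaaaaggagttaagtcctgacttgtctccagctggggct
FAS: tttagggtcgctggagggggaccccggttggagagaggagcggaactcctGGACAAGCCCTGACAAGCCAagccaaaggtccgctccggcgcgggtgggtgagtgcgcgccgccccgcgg
SESN1: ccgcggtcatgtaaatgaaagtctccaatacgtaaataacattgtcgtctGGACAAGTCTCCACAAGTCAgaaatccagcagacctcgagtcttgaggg

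The windows of TP53I3 and CDKN1A held neither the exact decamer nor the pair. The 150 bases before their starts are shown because these were the genes whose leaf-treated arrays all lay above the untreated arrays. The TP53I3 stretch is chr2:24084835-24084984 on the minus strand and the CDKN1A stretch chr6:36678564-36678713 on the plus strand. A missing match says only that these letters are not in this window, and in CDKN1A the known p53 sites lie further upstream.
TP53I3: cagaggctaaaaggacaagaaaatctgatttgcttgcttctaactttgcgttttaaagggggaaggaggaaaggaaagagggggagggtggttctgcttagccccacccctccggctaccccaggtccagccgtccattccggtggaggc
CDKN1A: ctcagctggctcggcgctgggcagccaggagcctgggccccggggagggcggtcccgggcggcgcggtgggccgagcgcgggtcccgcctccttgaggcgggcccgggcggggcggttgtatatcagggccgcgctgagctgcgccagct

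The leaf-treated arrays did not stand equally far from the untreated ones. Over all tested clusters the root mean square distance to the mean of the untreated arrays was 0.27, 0.19 and 0.28 for leaf-treated arrays 1, 2 and 3, and 0.15 to 0.18 for each untreated array against the other untreated arrays. Array 2 was therefore the leaf-treated array nearest to untreated cells. The 95th percentile of olfactory receptor genes, 3.34, served as a stand-in for background. The medians of whole arrays, at 3.71 to 3.83, also lay above it, so passing it says little about the type of cell. Of the hepatocyte markers, 9 of 9 measured lay above 3.34 on every array, and their mean on an array was 9.65 to 9.83. All 9 p53 target clusters also lay above 3.34 on every array, between 3.97 and 8.98. The share of all clusters that did so was not counted, so this does not set the listed genes apart. Of the markers of other cells, 3 of 5 squamous, 1 of 6 fibroblast and 1 of 5 blood markers did so.

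After the leaf extract no p53 target gene differed from untreated cells beyond the test's threshold. None of the 9 clusters was called by limma at an adjusted p under 0.05, where 0.00518% of all clusters were called. None passed the thresholds of the series' design (unadjusted p under 0.05 and a change of at least 1.5 fold), which 0.840% of all clusters passed. At an unadjusted p under 0.05 alone, TP53I3 was higher, which is 1 of 9 clusters (11.1%) beside 3.87% of all clusters, and no listed gene was lower beside 5.90%. CDKN1A joined TP53I3 after quantile normalization, in the analysis of variance of the series' design and without leaf-treated array 3, and BBC3 joined it with array weights and without leaf-treated array 2. In TP53I3 and CDKN1A every leaf-treated array lay above every untreated array, beside 6.14% of all clusters, and in none did every array lie below, beside 7.41%. The mean was higher after treatment in 6 genes and lower in 3, where 53.1% of all clusters were higher. The number of higher genes was 8 after quantile normalization or without leaf-treated array 1, and 7 without untreated array 2. It was 5 with array weights, and 4 after median centring of the arrays or without leaf-treated array 2. The median log2 fold change was 0.03 over the 9 clusters and 0.01 over all clusters. RNA was taken from whole cultures, so that a change in a few cells and a smaller change in all of them cannot be told apart.

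The intervals below are for the values as deposited and reflect the variation among these arrays. How many of all clusters had such intervals was not counted. For 7 of the 9 genes the 95% interval of the difference, not adjusted for the number of genes, lay inside a 1.5-fold change in either direction. Only those of BBC3 and ZMAT3 reached beyond it.

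**Figure D1:**
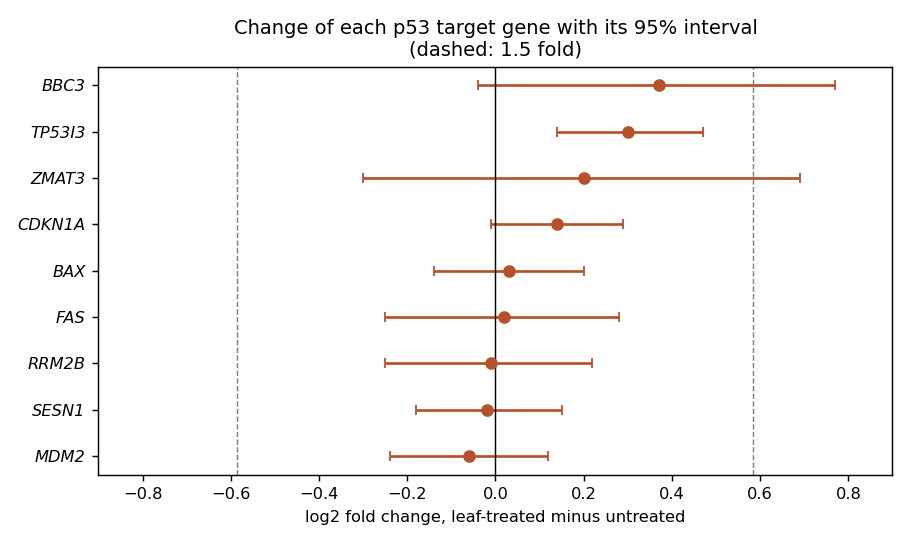
Log2 fold change (leaf-treated minus untreated, horizontal axis) of the 9 measured p53 target genes, with 95% intervals from limma as bars and 1.5 fold as dashed lines. The interval of TP53I3 runs from 0.14 to 0.47 and is the only one that does not reach 0, while those of BBC3 and ZMAT3 pass the upper dashed line.

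CDKN1A encodes p21, the inhibitor of cyclin-dependent kinases through which p53 stops cell division. Its log2 value was 5.06, 5.12 and 5.13 on the untreated arrays and 5.27, 5.28 and 5.18 on the leaf-treated arrays. The groups did not overlap, but the gap between the lowest leaf-treated and the highest untreated array was small. The log2 difference was 0.14 (SE, the standard error, 0.06, and limma adjusted p = 0.51), which is 1.10 fold with an interval of 0.990 to 1.23 fold. It lay between 0.12 and 0.17 when any 1 array was left out, and was 0.08 after centring and 0.20 after quantile normalization. The 3 clusters whose pattern over the 6 arrays was most like that of CDKN1A were CCNI, NMRAL2P and LMNA, with Pearson correlations of 0.999, 0.991 and 0.989. These are picked from 19291 clusters over 6 arrays that share their groups, and 30 clusters had a correlation over 0.95.

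MDM2 encodes the ubiquitin ligase that removes p53. It had log2 values of 8.88, 8.76 and 8.98 on the untreated arrays and 8.82, 8.80 and 8.82 on the leaf-treated arrays. All leaf-treated values lay inside the untreated range. Its difference on the log2 scale was -0.06 (SE 0.08, limma adjusted p = 0.75), with an interval of 0.845 to 1.08 fold. This interval is for the values as deposited. The cluster gives 1 value for the gene, so transcripts from the internal start shown above were not measured apart. The sign turned after quantile normalization, to 0.04 (SE 0.09). The difference was -0.13 after centring, -0.12 without untreated array 2 and -0.0098 without untreated array 3. The clusters most like MDM2 over the 6 arrays were MFF, SCARNA12 and NOP53, with Pearson correlations of 0.991, 0.988 and 0.981, and 20 clusters had a correlation over 0.95.

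TP53I3 (PIG3) encodes an oxidoreductase related to quinone reductases that was first found as a p53-induced gene. It had the smallest p of the listed genes. Its log2 value was 5.58, 5.57 and 5.68 on the untreated arrays and 5.92, 5.99 and 5.84 on the leaf-treated arrays. Each leaf-treated array lay above each untreated one, by 0.23 to 0.37 above the untreated mean. On the log2 scale TP53I3 was higher by 0.30 (SE 0.07, limma adjusted p = 0.38), or 1.23 fold with an interval of 1.10 to 1.39 fold. By p it ranked 201 of 19291 clusters. The value stayed between 0.24 and 0.39 under the alternatives of scaling, filter, model or left-out array, and the lowest adjusted p, 0.13 from limma, came without leaf-treated array 2.

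**Figure D2:**
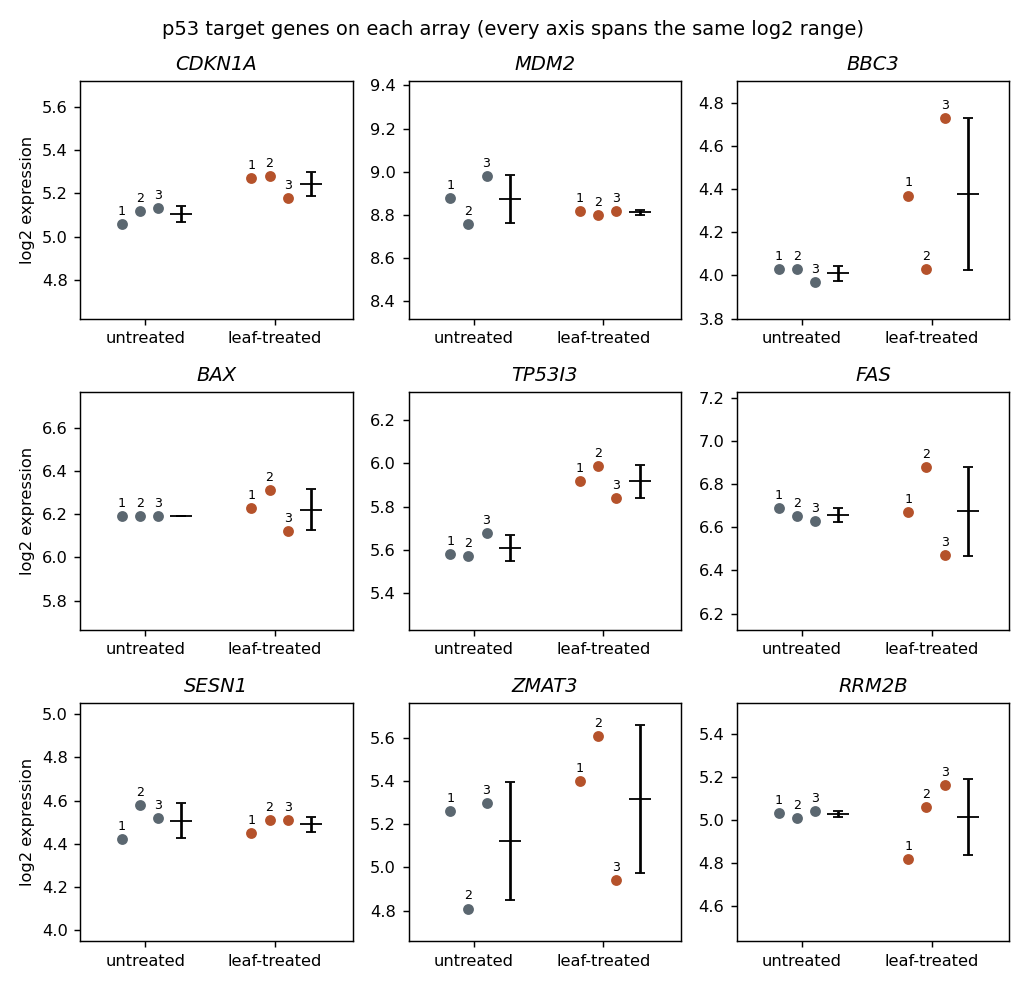
Log2 expression of each measured p53 target gene on the 3 untreated and 3 leaf-treated arrays (points, numbered by replicate; bars, mean ± SD, n = 3), on axes of equal span. The leaf-treated points of TP53I3 and CDKN1A all lie above the untreated ones, and those of BBC3, FAS, ZMAT3 and RRM2B are spread widely.

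Of the death pathway genes BBC3, BAX and FAS, none was called, and the means after treatment were higher by 0.37, 0.03 and 0.02. BBC3 encodes PUMA, which releases BAX and BAK1 from their inhibitors at mitochondria. Its log2 value was 4.03, 4.03 and 3.97 on the untreated arrays and 4.37, 4.03 and 4.73 on the leaf-treated arrays. Leaf-treated arrays 1 and 3 were higher than any untreated array, and array 2 had exactly the value of untreated arrays 1 and 2. With a log2 difference of 0.37 (SE 0.17, limma adjusted p = 0.51) it had the largest difference of the list, 1.29 fold with an interval of 0.974 to 1.71 fold. It was 0.54 without leaf-treated array 2 and 0.19 without leaf-treated array 3, the latter a shift of over 1.5 times. The lowest adjusted p of any listed gene under any alternative, 0.11 from limma, was that of BBC3 without leaf-treated array 2. On the same arrays, the mean over the 5 measured squamous markers was 3.82 to 3.97 in untreated cells and 4.13, 3.93 and 4.18 on leaf-treated arrays 1, 2 and 3. Of these markers 5 of 5 had a higher mean after treatment (median log2 fold change 0.20), where 53.1% of all clusters were higher. Separate groups were seen in 0 of 5. Of all clusters, 6.14% had every leaf-treated array above every untreated array and 7.41% had every one below. SFN, among these markers, is itself known to be activated by p53. The means of the fibroblast markers (3.07 to 3.18 untreated and 3.22, 3.13 and 3.29 leaf-treated) and of the blood markers (4.47 to 4.56 untreated and 4.54 to 4.63 leaf-treated) had the same order of leaf-treated arrays. So did the medians of whole arrays, at 3.71 to 3.74 untreated and 3.81, 3.75 and 3.83 leaf-treated. The log2 difference of BBC3 was 0.30 (SE 0.15) after centring on the median and 0.36 (SE 0.17) after quantile normalization. What part the marker levels or the array medians have in the values of BBC3 was not tested.

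BAX, which forms the pores in the outer mitochondrial membrane, was at 6.19 on all 3 untreated arrays, with the same value to the last digit given. The leaf-treated arrays were at 6.23, 6.31 and 6.12, so that they lay on both sides of it. Its log2 difference was 0.03 (SE 0.07, limma adjusted p = 0.89), with an interval of 0.905 to 1.15 fold, and it turned to -0.04 after centring. Identical values are frequent in the deposited table, where 41.1% of tested clusters share a value between at least 2 arrays and 3.08% have 1 value on the 3 untreated arrays, and the SD of BAX in untreated cells is therefore no measure of its spread. FAS, the death receptor on the cell surface, had log2 values of 6.69, 6.65 and 6.63 on the untreated arrays and 6.67, 6.88 and 6.47 on the leaf-treated arrays. The mean was almost equal (6.66 ± 0.03 and 6.67 ± 0.21, SD, n = 3), while the SD was 6.71 times as large after treatment. For FAS the log2 difference was 0.02 (SE 0.11, limma adjusted p = 0.96), with an interval of 0.843 to 1.21 fold, and it turned to -0.05 after centring. Without leaf-treated array 2 it was -0.09 and without array 3 it was 0.12.

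Among the genes of stress adaptation and DNA precursor supply, differences were within the spread of the arrays. SESN1 encodes a sestrin, which restrains mTORC1 and takes part in antioxidant defence. It stood at 4.42, 4.58 and 4.52 on the untreated arrays and at 4.45, 4.51 and 4.51 on the leaf-treated arrays, all inside the untreated range. This is a log2 difference of -0.02 (SE 0.07, limma adjusted p = 0.94), with an interval of 0.882 to 1.11 fold. RRM2B encodes the p53-inducible small subunit of ribonucleotide reductase, which supplies deoxynucleotides outside S phase. It was nearly constant in untreated cells, at 5.03, 5.01 and 5.04, and ranged over 4.82, 5.06 and 5.16 on the leaf-treated arrays. Its log2 difference was -0.01 (SE 0.10, limma adjusted p = 0.97), with an interval of 0.843 to 1.16 fold, and it turned to 0.03 after quantile normalization and to 0.08 without leaf-treated array 1. ZMAT3 encodes a zinc finger protein that binds RNA and acts on splicing. Its values overlapped widely, at 5.26, 4.81 and 5.30 on the untreated arrays and 5.40, 5.61 and 4.94 on the leaf-treated arrays. For ZMAT3 the log2 difference was 0.20 (SE 0.21, limma adjusted p = 0.72), with an interval of 0.814 to 1.61 fold. It was 0.04 without untreated array 2, 0.05 without leaf-treated array 2 and 0.38 without leaf-treated array 3.

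The order of the 3 leaf-treated arrays recurred between genes. In CDKN1A, BAX, TP53I3, FAS and ZMAT3, which are 5 of the 9, array 2 was highest and array 3 lowest. Over all tested clusters 18.5% had this order. BBC3 had the opposite order, and SESN1 and RRM2B were lowest on array 1. Relative to the untreated mean, the median over the 9 genes was 0.04, 0.11 and 0.01 on leaf-treated arrays 1, 2 and 3. The genes share their arrays, so these counts are a description with no test. The SD was larger on the leaf-treated arrays in 7 of the 9 genes, and in 66.4% of all clusters.

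**Figure D3:**
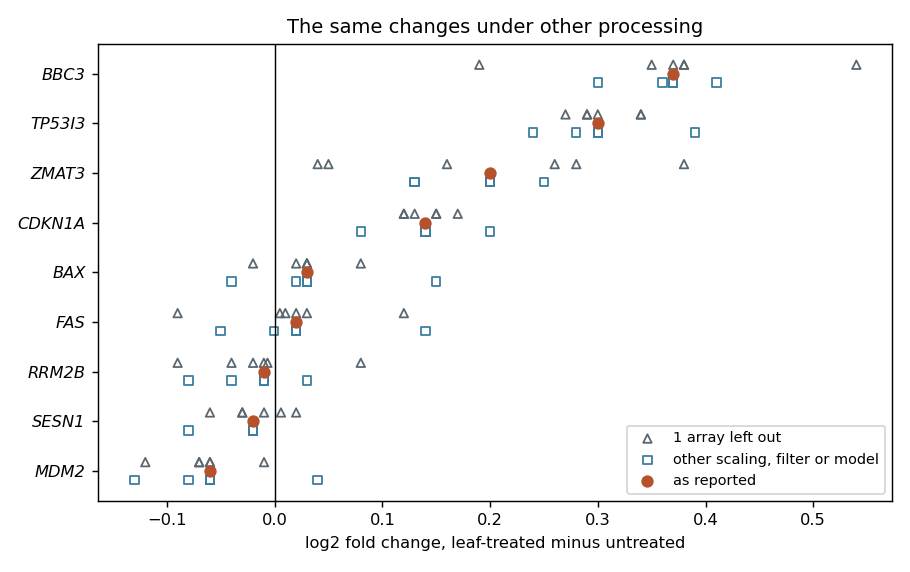
Log2 fold change of each measured p53 target gene (horizontal axis) as reported, with 1 array left out (triangles) and under other scaling, filters or models (squares). TP53I3, BBC3, CDKN1A and ZMAT3 stay above 0 in every setting shown, whereas BAX, FAS, RRM2B, SESN1 and MDM2 fall on both sides of 0.

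The wider pathway was described with further lists, for which 1 cluster per gene was used, the one with the highest mean. None of their members was called by limma at an adjusted p under 0.05. Of 38 other genes that p53 is known to activate, 36 were measured, 1 of them higher and 1 lower at an unadjusted p under 0.05, beside 3.87% and 5.90% of all clusters. The median log2 fold change of these 36 was 0.02. It turned to -0.04 after centring and without leaf-treated array 2, and to -0.01 with array weights and without untreated array 2. PHLDA3, which restrains AKT signalling, had log2 values of 4.10, 4.12 and 4.18 on the untreated arrays and 4.34, 4.56 and 4.73 on the leaf-treated arrays. Its groups did not overlap, and its log2 difference was 0.41 (SE 0.11, limma adjusted p = 0.43). The other was CMBL, a hydrolase, at -0.19 (SE 0.08, limma adjusted p = 0.51). PPM1D, the phosphatase that ends p53 signalling, had a log2 difference of 0.01 (SE 0.12, limma adjusted p = 0.99). After quantile normalization 6 of the 36 were higher and 3 lower, beside 4.74% and 5.40% of all clusters. After centring 1 was higher and 4 lower, beside 1.95% and 9.72%. Without leaf-treated array 2 the counts were 1 higher and 7 lower, beside 8.28% and 11.7%. Without leaf-treated array 3 they were 4 higher and 0 lower, beside 3.61% and 3.80%.

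Of 22 genes for p53 itself and for proteins that act on it, 20 were measured, and the gene of p53 was not analysed here. The median log2 fold change of the 20 was -0.09 (-0.03 after quantile normalization, -0.15 after centring). At an unadjusted p under 0.05, 1 was higher and 1 lower, beside 3.87% and 5.90% of all clusters. RCHY1 (Pirh2), another ubiquitin ligase for p53, was at 5.92, 5.42 and 5.81 on the untreated arrays and 5.04, 5.57 and 4.86 on the leaf-treated arrays. The groups overlapped through leaf-treated array 2, and the log2 difference was -0.56 (SE 0.21, limma adjusted p = 0.51). PPP1R13L (iASPP), an inhibitor of p53, was at 3.08 to 3.44 on untreated and 3.46 to 3.83 on leaf-treated arrays, with a log2 difference of 0.35 (SE 0.13, limma adjusted p = 0.51). Its untreated mean of 3.29 lay below 3.34, the stand-in for background, so the size of this difference is uncertain. MDM4, the partner of MDM2, was at 6.24, 6.16 and 6.24 on the untreated arrays. On the leaf-treated arrays it was at 5.93, 6.19 and 5.39, again with array 2 inside the untreated range. For MDM4 the log2 difference was -0.38 (SE 0.19, limma adjusted p = 0.53). The number of lower regulators was 5 without leaf-treated array 2, 4 after centring and 7 with array weights, where 11.7%, 9.72% and 8.11% of all clusters were lower. It was 3 without untreated array 2, where 4.73% of all clusters were lower. In the analysis of variance and without untreated array 1, untreated array 3 or leaf-treated array 1 it was 0. The shares of all clusters that were lower there were 3.67%, 2.91%, 3.77% and 3.66%.

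Downstream of p21, 18 genes for cyclins, cyclin-dependent kinases, pocket proteins and their partners were measured. Their median log2 fold change was -0.17 (-0.08 after quantile normalization), and 16 of the 18 were lower on average, where 53.1% of all clusters were higher. At an unadjusted p under 0.05, 4 of the 18 were lower, beside 5.90% of all clusters, and none was higher. CCNA2, the cyclin of S phase and G2, was at 8.56, 8.26 and 8.50 on the untreated arrays and 7.64, 8.07 and 8.11 on the leaf-treated arrays. Its groups were separate, with a log2 difference of -0.50 (SE 0.15, limma adjusted p = 0.47). The other lower genes were CDK1 at -0.38, the pocket protein RBL1 at -0.27 and CDK2 at -0.61, the last pair named after their values were seen, each with an adjusted p of 0.51 from limma. The number of lower genes was 7 after centring or with array weights and 10 without leaf-treated array 2, where 9.72%, 8.11% and 11.7% of all clusters were lower and 1 gene of the list was higher without that array. It was 3 in the analysis of variance and without untreated array 2, beside 3.67% and 4.73% of all clusters. Without untreated array 3 it was 2, beside 3.77%. Without leaf-treated array 1 or 3 it was 1, beside 3.66% and 3.80%. Without untreated array 1 it was 0, beside 2.91%. The shares of 53.1% and 5.90% are over all clusters, of which 8474 of 19291 had a mean log2 value of at least 4. Of the 18 genes 16 had such a mean. Among all clusters with that mean the median log2 fold change was -0.06, and 10.8% were lower at an unadjusted p under 0.05. Of the 16 genes 4 were lower in that setting, with a median of -0.17.

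Of 26 apoptosis genes around BBC3, BAX and FAS, 22 were measured. None of them had an unadjusted p under 0.05, where 3.87% of all clusters were higher and 5.90% lower. After quantile normalization or without untreated array 3, 1 was higher, beside 4.74% and 2.62% of all clusters. After centring, or without untreated array 2, leaf-treated array 1 or leaf-treated array 2, 1 was lower. The shares of all clusters that were lower there were 9.72%, 4.73%, 3.66% and 11.7%. The median log2 fold change of the 22 was 0.01. FADD, the adaptor of FAS, had a log2 difference of -0.16 (SE 0.07, limma adjusted p = 0.51) and the survival gene BCL2L1 (BCL-XL) one of 0.34 (SE 0.16, limma adjusted p = 0.51). The groups of FADD were separate, at 4.53 to 4.61 on untreated and 4.30 to 4.48 on leaf-treated arrays. Those of BCL2L1 were separate in the opposite direction, but barely. Its highest untreated and its lowest leaf-treated array both read 7.53. The relatives of the listed genes, 12 in number, had a median log2 fold change of -0.06. RRM2, the S phase counterpart of RRM2B, had a mean of 8.11 ± 0.09 on the untreated and 7.72 ± 0.27 on the leaf-treated arrays (SD, n = 3), with separate groups. It was the 1 relative of 12 that was lower at an unadjusted p under 0.05, beside 5.90% of all clusters. Its log2 difference was -0.39 (SE 0.14, limma adjusted p = 0.51). No relative was lower in the analysis of variance, without untreated array 1 or 3, or without leaf-treated array 1 or 3. In these settings 2.91% to 3.80% of all clusters were lower. After quantile normalization 1 relative was higher and 1 lower, beside 4.74% and 5.40%. CDKN1B (p27), a relative of CDKN1A, had a log2 difference of -0.21 (SE 0.11, limma adjusted p = 0.52).

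**Figure D4:**
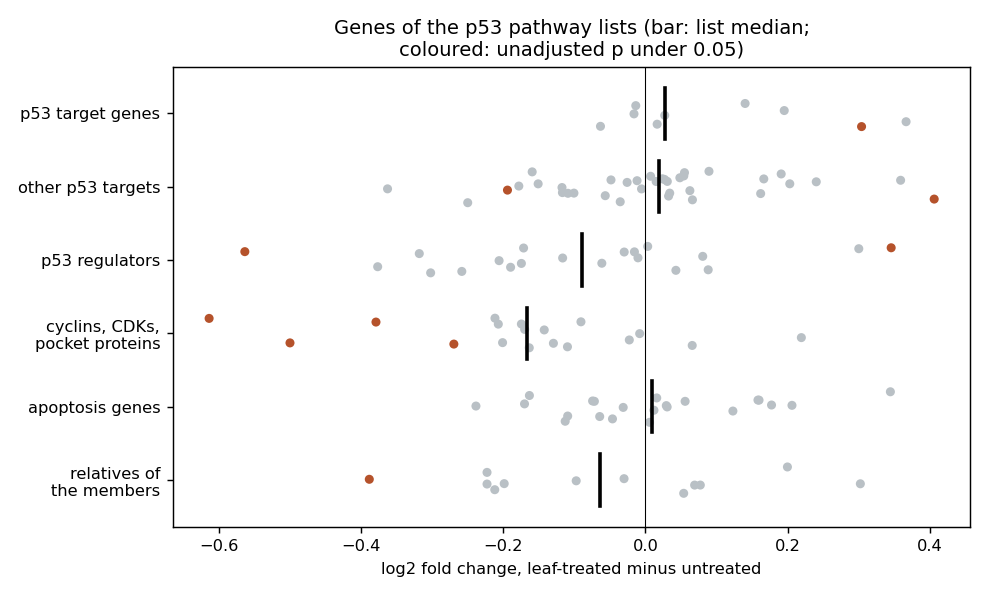
Log2 fold change (leaf-treated minus untreated) of every measured gene of 6 lists around p53; bars are list medians and coloured points have an unadjusted p under 0.05. The medians are 0.03 for the p53 target genes, 0.02 for other targets, -0.09 for regulators, -0.17 for cyclins, kinases and pocket proteins, 0.01 for apoptosis genes and -0.06 for relatives.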

How the data were processed

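Total RNA of 6 samples was labelled with biotin for the Affymetrix Human Gene 1.0 ST array. As deposited by the authors, the values are log2 expression in 1 table of the series. GCOS, Partek and RMA are named in the processing notes of the submitters, and the sources used here give neither versions nor options. Rows at 0 on every array (4468 of 33297) were left out. The 19291 clusters with exactly 1 symbol were tested with limma 3.58.1 in R 4.3.3 (lmFit and eBayes without covariates), and p was adjusted over all of them after Benjamini and Hochberg. Intervals use the moderated SE and 6.51 degrees of freedom. The fit was tested on simulated data. With 3 arrays per group, the number of arrays sets the precision.

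The listed genes and the further lists were chosen with earlier results of these data known, and the p53 motif was defined after matches under several definitions had been seen. Named were all listed genes, PPM1D, MDM4, the 2 genes with the smallest p in each further list, and the 3 clusters most like CDKN1A and MDM2. RBL1, CDK2 and SFN were named after their values were seen. Promoter windows came from RefSeq. As alternatives, values were quantile normalized or centred on the median, clusters with a mean under 4 were dropped, and the model was fitted robustly with a trend in intensity, with weights for arrays, as the analysis of variance of the series' design, on all rows, on the mean of a gene's clusters, with a replicate block and without each array in turn.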

Additional observations from a re-analysis of the deposited data

How the results depend on the processing

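None of the 9 listed genes was called under any of the 15 alternatives, and in 125 of 135 recalculations of a gene the direction was kept. Signs turned after quantile normalization for MDM2 (0.04) and RRM2B (0.03), after centring on the median for BAX (-0.04) and FAS (-0.05), with array weights for FAS (-0.00035), and in 5 cases when 1 array was left out. The ranges with 1 array left out were -0.02 to 0.08 for BAX, -0.09 to 0.12 for FAS, -0.06 to 0.02 for SESN1 and -0.09 to 0.08 for RRM2B. Of the listed genes, 2 had an unadjusted p under 0.05 after quantile normalization, with array weights and in the analysis of variance of the series' design. The shares of all clusters were 10.1%, 13.6% and 6.15%. When 1 array was left out, 1 to 2 listed genes had such a p, beside 4.95% to 20% of all clusters. Their median log2 fold change was 0.15 after quantile normalization, -0.04 after centring and -0.02 to 0.12 with 1 array left out. The number of clusters called was 8 after quantile normalization, 3 after centring and with array weights, 4 without dim clusters, 2 with the intensity trend, over all rows and with the mean of a gene's clusters, and 0 in the analysis of variance, with the replicate block and whenever 1 array was left out. Clusters past the thresholds of the series' design numbered 162 (52 higher, 110 lower), 63 higher and 80 lower after quantile normalization, 30 higher and 189 lower after centring, 101 in the analysis of variance, 250 over all rows, and 111 to 490 with 1 array left out (490 without leaf-treated array 2). With unadjusted p under 0.05, 746 clusters were higher and 1139 lower, against 376 and 1875 after centring, 1211 in all without dim clusters, 1186 in the analysis of variance and 954 (without untreated array 1) to 3862 (without leaf-treated array 2) with 1 array left out. Same-numbered arrays did not deviate together (Pearson correlations of -0.115, -0.177 and 0.121 over clusters), and the main fit used no pairing. With 3 arrays per group these correlations cannot settle whether samples were paired. With the replicate block, 3.76% of all clusters were higher and 4.95% lower at an unadjusted p under 0.05. In that setting 1 listed gene had an unadjusted p under 0.05. The other p53 targets had 3 higher and 0 lower genes, the regulators 0 lower and the cyclin and kinase list 2 lower. The cause of these shifts was not tested.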
